A study of Mus musculus with 6 samples.

Results

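Myotubes and the myoblasts they come from were compared through 1 array of each, an untreated C2C12 culture in 2% differentiation medium and an untreated C2C12 culture in 10% fetal bovine serum (FBS). These are 2 of the 6 arrays of the study. C2C12 is an established mouse line of muscle precursor cells, a subclone grown from adult muscle. All 6 cultures were grown with 10% FBS first, and all 6 carry the cell type label of myoblasts. The differentiation culture then received 2% differentiation medium and was harvested on day 5, without treatment. The growth culture stayed in 10% FBS without treatment. The other 4 cultures give the same change of medium again under treatment. They were a TNF pair, with TNF-α at 50 ng/ml for 24 h in 10% FBS or added on day 4 of differentiation, and a BTZ pair, with BTZ at 10 nM in the same schedule. BTZ is not spelled out in the labels and usually stands for bortezomib, a proteasome inhibitor. No culture was replicated, so the difference between the 2 untreated arrays has no error and no p-value. Medium, serum and days in culture changed together and cannot be told apart.

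A myoblast is a dividing cell committed to muscle. When serum falls it leaves the cell cycle, switches on myogenin and the MEF2 factors, and fuses with its neighbours into a myotube, a fibre with many nuclei that cannot divide again. The fibre builds sarcomeres, the repeating contractile units of actin and myosin filaments, and triads, the membrane junctions that release calcium to start a contraction. It also gathers acetylcholine receptors, through which a motor nerve would reach it. A C2C12 culture in differentiation medium usually keeps some single, unfused cells, and no nerve is present. The arrays read RNA of the whole culture, so fewer cells of a type and less RNA per cell cannot be told apart.

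The values were log2 signals of whole-transcript Affymetrix probe sets, and a difference of 1 is a 2-fold change. A gene was the mean of the probe sets that name it alone. In all, 22180 genes were measured, and 13652 of them reached the median of all values, 5.06, on at least 1 of the 6 arrays. That level serves as the floor here. The median over all probe sets was 5.07 on both untreated arrays, and the median difference between them was 0.03 over all measured genes and 0.01 over genes above the floor. In differentiation medium 660 genes were at least 2-fold higher, or 4.83% of those above the floor and 2.98% of all measured. At least 2-fold lower were 535 genes, 3.92% and 2.41%. In 222 of these 1195 genes the lower array was under the floor, where background compresses a fold. The genes nearest the threshold were Klf5, at 1.0001 inside it, and Parp9, at 0.9997 outside it, on the higher side. On the lower side they were Cxcl5 inside, which read 8.03 in 10% FBS and 7.03 in differentiation medium, and Fam131b, at -0.9965 outside.

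The 4 marker genes were given together with this comparison and stand at its ends. That they go with the name myotube is therefore no test of it. Myh3, the embryonic myosin heavy chain, read 4.38 in 10% FBS and 11.05 in differentiation medium. Ttn, the gene of titin, the molecular spring that spans the sarcomere, read 5.66 and 11.87. Mymk, which encodes the fusion protein myomaker, read 5.56 and 11.65. Bub1, a kinase of the mitotic spindle checkpoint, went the other way, from 8.96 to 5.07, which is at the floor. Markers of other cell types were looked at as well. Of 54 measured markers of fat, macrophage, endothelial, nerve and skeletal tissue cells, 27 were above the floor, 0 were 2-fold higher and 5 were 2-fold lower. The adipocyte markers were at 4.12 to 7.92 in 10% FBS and 3.29 to 6.59 in differentiation medium, with Pparg, the master regulator of fat cells, at 7.92 and 6.59. The nerve and glia list had 3 of 10 genes 2-fold lower: the neuronal tubulin Tubb3 read 8.51 and 7.31, the glial factor Sox10 5.44 and 4.39 and the neurofilament gene Nefl 5.53 and 4.09. The macrophage, endothelial, and bone and cartilage lists had 0 members past 2-fold either way. A further list, of genes of quiescent or reserve muscle cells, is not among the 54. Of its 28 measured genes 7 were 2-fold higher and 2 lower, with a median of 0.38. These shares of 25% and 7.14% stand against 2.98% and 2.41% of all measured genes.

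**Figure D1:**
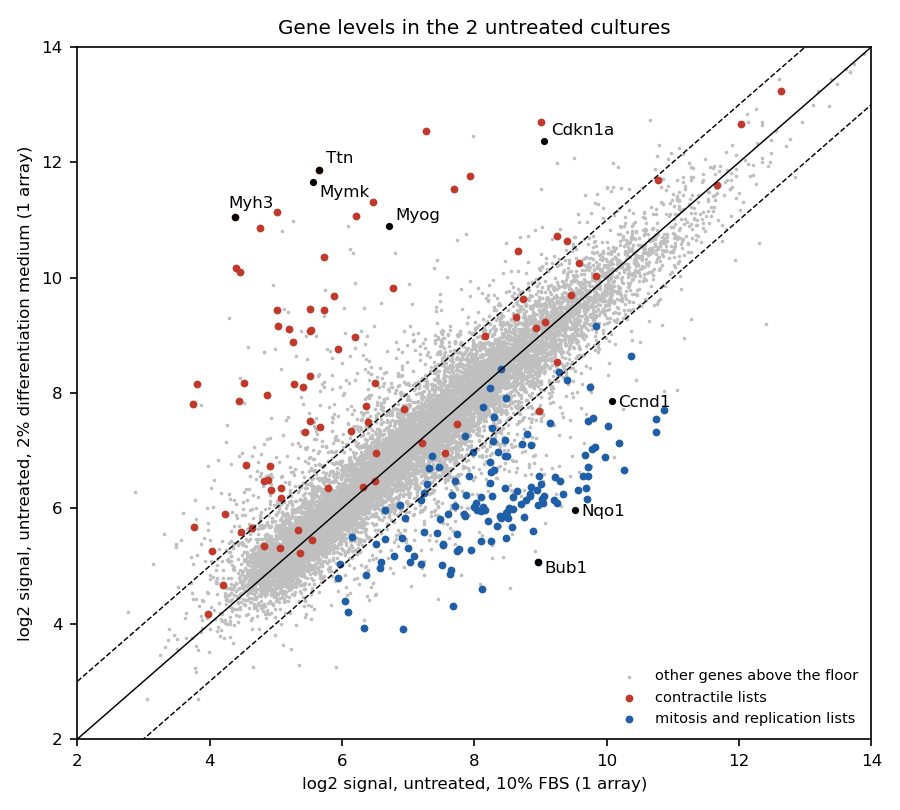
Log2 signal of each gene above the floor in the untreated 10% FBS culture (horizontal) and the untreated differentiation culture (vertical), 1 array each; the solid line marks equal signal and the dashed lines a 2-fold difference. Genes of the contractile lists (red) lie mostly above the upper dashed line and genes of the mitosis and replication lists (blue) mostly below the lower one.

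The upstream stretches of 6 genes at the ends of the comparison are shown because promoters of muscle genes and of mitotic genes are known for different short motifs. Myogenic factors of the MyoD family bind the E-box, CANNTG, and prefer its form CAGCTG. Genes that peak in mitosis often carry CCAAT boxes, bound by NF-Y, and the element TTTGAA or TTCGAA, called CHR and bound by the MuvB complexes. Each stretch is the 250 bases before the start of the gene, from RefSeq, build GRCm38.p6, and both strands were searched. In the first 3 genes the capitals mark E-boxes. Myog, the gene of the muscle master regulator myogenin, read 6.71 in 10% FBS and 10.90 in differentiation medium, and its stretch lies at chr1:134289754-134290003 on the plus strand. Chrng, the fetal gamma subunit of the acetylcholine receptor, read 5.25 and 10.99 and lies at chr1:87205561-87205810, plus strand. Acta1, skeletal muscle actin, read 7.27 and 12.54 and lies at chr8:123894776-123895025, minus strand.
Myog: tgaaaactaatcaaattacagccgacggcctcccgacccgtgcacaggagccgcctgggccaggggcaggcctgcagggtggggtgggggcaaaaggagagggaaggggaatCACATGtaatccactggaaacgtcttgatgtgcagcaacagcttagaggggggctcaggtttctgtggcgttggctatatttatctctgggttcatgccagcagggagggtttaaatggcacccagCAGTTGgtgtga
Chrng: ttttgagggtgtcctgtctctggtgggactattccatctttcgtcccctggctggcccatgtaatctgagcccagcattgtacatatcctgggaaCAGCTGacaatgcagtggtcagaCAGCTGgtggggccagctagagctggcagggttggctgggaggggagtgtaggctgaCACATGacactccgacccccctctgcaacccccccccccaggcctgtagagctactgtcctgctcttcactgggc
Acta1: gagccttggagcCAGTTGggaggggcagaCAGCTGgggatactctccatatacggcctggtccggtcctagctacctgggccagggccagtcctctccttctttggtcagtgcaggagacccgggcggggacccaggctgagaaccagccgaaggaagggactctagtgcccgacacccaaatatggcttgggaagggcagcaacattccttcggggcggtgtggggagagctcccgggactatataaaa
The Myog stretch holds 2 E-boxes, that of Chrng 3 and that of Acta1 2. Both CAGCTG boxes of Chrng stand within 155 bases of its start.

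In the next 3 genes the capitals mark the CCAAT box on either strand and the CHR elements. Bub1 lies at chr2:127831860-127832109 on the minus strand. Plk1, the polo-like kinase that drives entry into mitosis, read 9.71 in 10% FBS and 6.56 in differentiation medium and lies at chr7:122159185-122159434, plus strand. Cdk1, the kinase that cyclins A and B activate, read 9.72 and 6.72 and lies at chr10:69352913-69353162, minus strand. Cdk1 was singled out after its values were seen.
Bub1: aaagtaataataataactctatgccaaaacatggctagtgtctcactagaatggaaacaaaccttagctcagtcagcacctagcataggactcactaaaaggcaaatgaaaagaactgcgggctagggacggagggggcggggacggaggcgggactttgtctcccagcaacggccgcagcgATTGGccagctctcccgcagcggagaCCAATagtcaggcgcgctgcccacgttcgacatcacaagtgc
Plk1: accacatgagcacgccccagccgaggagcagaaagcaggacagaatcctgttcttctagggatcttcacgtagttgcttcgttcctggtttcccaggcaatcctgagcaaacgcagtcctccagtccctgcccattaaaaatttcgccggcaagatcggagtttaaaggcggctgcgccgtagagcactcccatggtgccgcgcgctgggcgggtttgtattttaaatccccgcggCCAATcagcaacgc
Cdk1: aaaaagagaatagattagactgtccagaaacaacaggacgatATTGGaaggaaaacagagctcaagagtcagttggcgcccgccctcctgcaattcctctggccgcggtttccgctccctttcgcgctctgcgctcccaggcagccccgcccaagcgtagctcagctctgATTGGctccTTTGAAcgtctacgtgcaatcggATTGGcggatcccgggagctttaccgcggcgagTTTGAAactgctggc
The Cdk1 stretch holds 3 CCAAT boxes and 2 TTTGAA elements, that of Bub1 2 CCAAT boxes and that of Plk1 1. Over all 32851 such stretches in the table, CAGCTG was in 13.0%, CCAAT in 33.8% and TTTGAA in 16.0%. Among 621 stretches of genes 2-fold higher, CAGCTG was in 23.3%, CCAAT in 36.1% and TTTGAA in 9.98%. Among 482 stretches of genes 2-fold lower the shares were 8.92%, 48.1% and 20.3%. The broader motif CANNTG was in 66.2% of all stretches, 68.4% of the higher and 52.7% of the lower. Stretches of the contractile lists held CAGCTG in 28 of 100 cases and TATAAA in 21 of 100, against 12.4% of all stretches for TATAAA. Those of the mitosis lists held CCAAT in 49 of 78 and TTTGAA in 23 of 78. TTCGAA was rare, in 1.34% of all stretches and 2.70% of those of lower genes. A match is a run of letters and does not show binding. Of the 660 higher and 535 lower genes, 471 and 409 had a stretch in the table.

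Many sarcomere genes stood at the highest end of the comparison. All gene lists here were chosen with earlier results of these data known, so their shares are descriptions and not tests. The 6 contractile lists held 94 measured genes, 84 of them above the floor. Of the 94, 55 or 58.5% were 2-fold higher, against 2.98% of all measured genes, and 1 was 2-fold lower, with a median difference of 1.34 against 0.03 over all genes. The members did not differ alike. In the thin filament, where actin is wound with tropomyosin and troponin, 15 of 21 genes were 2-fold higher and the median was 3.55. Neb, nebulin, the ruler along the actin filament, read 4.76 in 10% FBS and 10.86 in differentiation medium. Tnnc1, the calcium-binding troponin C of slow and heart muscle, read 6.21 and 11.07. Tnnt3, the fast troponin T, read 6.47 and 11.32. The leiomodin Lmod2, which lets actin filaments grow, read 5.73 and 10.35. The last 3 of these were thus between 4.62 and 4.86 log2 units higher, and Neb, which was under the floor in 10% FBS, differed more. In the M band, the line that ties thick filaments together, 9 of 10 genes were 2-fold higher with a median of 2.41. Myom2 differed by 5.63 and Myom1 by 4.35, both myomesins that cross-link myosin. The Z disc, which anchors the actin filaments, had 11 of 23 genes higher. Its most different members were Synpo2l at 3.91, Actn3, the fast-fibre alpha-actinin, at 3.84, and Pdlim3, an alpha-actinin partner, at 3.82. Lists of the proteins that fold and stabilise sarcomeres had 10 of 18 genes higher and 1 lower, led by the kelch proteins Klhl41 at 4.42, Klhl31 at 3.56 and Klhl40 at 2.19.

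The myosin heavy chains, the motors of the thick filament, separated by type. Of 13 measured genes 6 were 2-fold higher, against 2.98% of all measured genes, and 0 were lower, with a median of 0.52. Embryonic Myh3 led with 6.67. The adult fast chain Myh1 followed, at 4.40 in 10% FBS and 10.16 in differentiation medium, a difference of 5.76. The fast chain Myh4 read 3.74 and 7.81 and differed by 4.07. These 3 chains were far above the others in their difference. Myh2, the other adult fast chain, differed by 1.23, the perinatal chain Myh8 by 1.12 (probe sets at 1.40 and 0.84) and the slow chain Myh7 by 1.10, all from signals at or under 5.07 in 10% FBS. The extraocular chain Myh13 and the cardiac chain Myh6 stayed under the floor on every array. The nonmuscle chains were level: Myh9 read 11.67 and 11.61, Myh10 7.74 and 7.46, and Myh14 5.37 and 5.22. Myosin heavy chain genes are near-identical in long stretches, so cross-hybridisation between Myh1, Myh2, Myh4 and Myh8 was not tested. Among light chains and binding proteins 5 of 10 genes were higher, with the fast regulatory chain Mylpf at 5.02 and 11.14 and the fast essential chain Myl1 at 5.51 and 9.46. The atrial and embryonic light chain Myl4 differed by 2.78.

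Most genes of the calcium-release machinery were 2-fold higher, and most surface channels were not. Of 30 triad and calcium genes 20 or 66.7% were 2-fold higher, against 2.98% of all measured genes. None was 2-fold lower, and the median was 1.38. Casq2, calsequestrin, which stores calcium in the sarcoplasmic reticulum, read 5.09 in 10% FBS and 10.80 in differentiation medium. Trdn, triadin, which ties calsequestrin to the release channel, read 4.30 and 9.31. Atp2a1, the fast-muscle pump that returns calcium to the store, read 4.96 and 9.87. Srl, sarcalumenin, another calcium-binding protein of the store, differed by 4.37, and the reticulum cation channel Tmem38a by 3.71. Trdn and Atp2a1 were under the floor in 10% FBS. Of 26 channels of the surface membrane 3 or 11.5% were 2-fold higher, a share still above that of all measured genes, with a median of 0.05. They were Kcnn3, a calcium-activated potassium channel, at 2.64, Ano5, an anoctamin of muscle, at 2.42, and the ATP-gated channel P2rx5 at 1.73. The adult muscle chloride channel Clcn1 read 5.13 and 4.65. Of 22 genes of the dystrophin complex, which links the cytoskeleton to the matrix, 10 were higher and 0 lower, led by Sgca, alpha-sarcoglycan, at 3.44 and Sntb1, a syntrophin, at 3.11. The caveolin of muscle, Cav3, differed by 2.76.

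Among nerve-muscle synapse genes the fetal receptor subunit was far higher and the adult one stayed near the floor. Of 18 measured genes, all above the floor, 9 or 50% were 2-fold higher, against 2.98% of all measured genes. None was 2-fold lower, and the median was 0.96. The fetal receptor holds the gamma subunit, which the epsilon subunit replaces after innervation in the animal. Chrng differed by 5.73, while Chrne, the epsilon subunit, read 5.15 in 10% FBS and 5.06 in differentiation medium. With the floor at 5.06, a level Chrne signal and an undetected one cannot be told apart. The delta subunit Chrnd read 6.17 and 10.42, the beta subunit Chrnb1 7.59 and 10.01, and the alpha subunit Chrna1 10.17 and 11.92. The subunits thus differed by 5.73, 4.25, 2.42 and 1.75 for gamma, delta, beta and alpha. Among genes that gather the receptor the differences were smaller than for gamma, delta and beta: Lrp4, the agrin receptor, by 2.13, the kinase Musk by 1.64, its activator Dok7 by 1.61 and the scaffold Rapsn by 1.28. The neuregulin receptor Erbb3 read 4.58 and 8.80. Agrn, the gene of agrin itself, differed by 0.64, and Ache, the enzyme that clears acetylcholine, by -0.38.

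**Figure D2:**
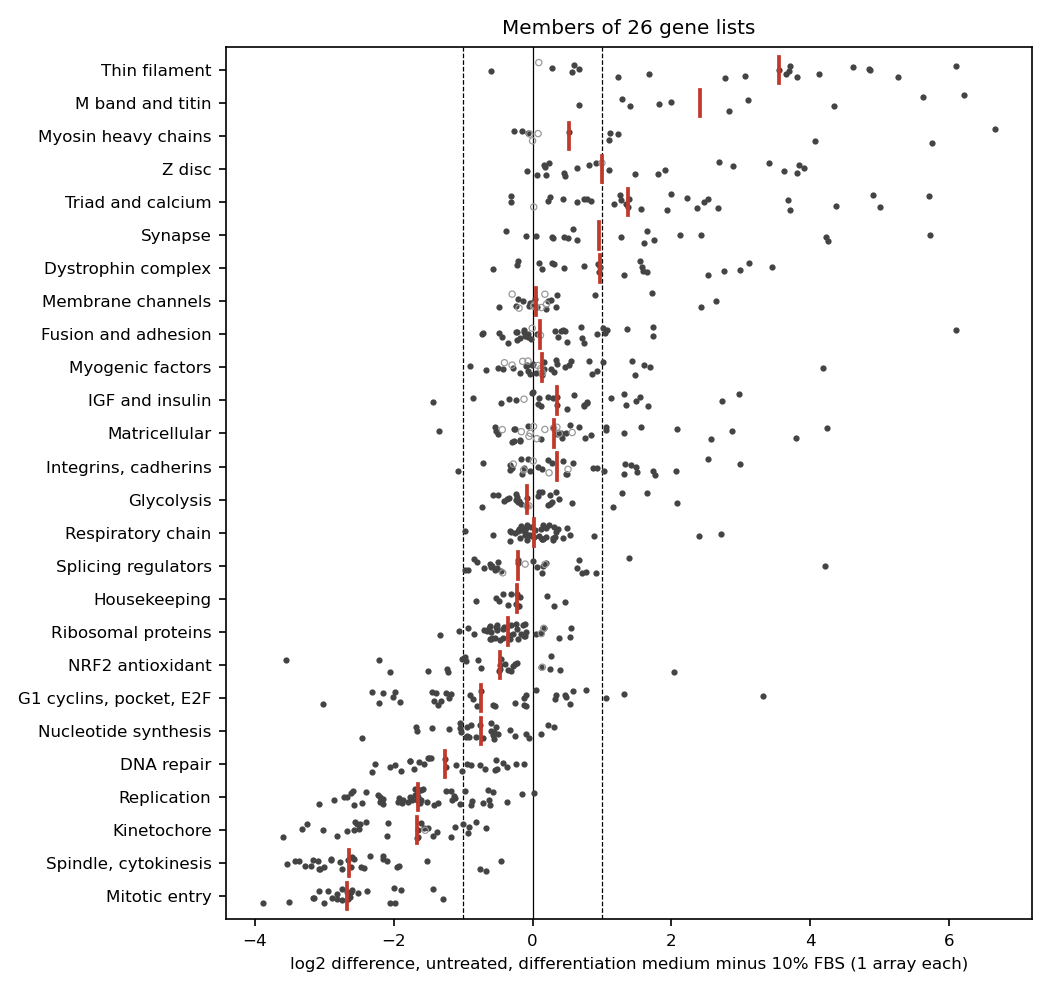
Log2 difference between the 2 untreated arrays (differentiation medium minus 10% FBS) for every measured member of 26 gene lists; filled dots are genes above the floor, open circles genes under it, and red bars the medians over all measured members. The thin filament list has the highest median, 3.55, and mitotic entry the lowest, -2.68, with dashed lines at a 2-fold difference.

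Among 39 myogenic transcription factors 6 were 2-fold higher, 0 were lower and 7 were under the floor. The 6 are 15.4% of the list, while 2.98% of all measured genes were higher and 2.41% lower. Myog differed by 4.19. Mef2c, a partner of the MyoD family, read 4.89 in 10% FBS and 6.58 in differentiation medium, the mean of 2 probe sets that differed by 2.63 and 0.75. Myod1, which commits cells to muscle, read 8.12 and 9.73. Mef2a differed by 1.48, Mef2d by 1.02 and Tead4, a factor that acts with the MyoD family, by 1.43. The factors of the precursor state were less different. Myf5, an early committing factor, read 8.78 and 7.88, and Pax7, the factor of muscle stem cells, read 7.50 and 8.06. Myf6, the factor of mature fibres, was under the floor on all arrays. Thus the 3 members of the MyoD family above the floor lay at 4.19, 1.61 and -0.91 for Myog, Myod1 and Myf5. Of 29 inhibitors of differentiation 5 were 2-fold higher and 4 lower, or 17.2% and 13.8%, against the same shares of all measured genes. Id3 and Id1, which trap the partners of MyoD, differed by -1.32 and -1.17, and Twist2 by -1.51, while the repressor Zeb1 was higher by 1.42 and Hes6 by 1.65.

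Of 35 measured fusion genes, 7 were 2-fold higher, against 2.98% of all measured genes, and 0 lower, and the median was 0.11. Myomaker stood alone at 6.10. Mymx, its partner myomixer, read 5.06 in 10% FBS and 6.80 in differentiation medium. The muscle cadherin Cdh15 read 7.94 and 9.68, and Cdon, a cadherin-binding receptor that promotes myogenesis, read 9.76 and 11.13. Trio, which activates the GTPase Rac, differed by 1.04, its relative in Rac signalling Elmo1 by 1.08 and the interleukin-4 receptor Il4ra by 1.02. Dysf, dysferlin, a membrane repair protein, had 2 probe sets that went opposite ways, at 1.79 and -0.30. Cdh2, Vcam1 and Cd9, adhesion proteins used in fusion, differed by 0.50, 0.44 and -0.49.

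Genes of dividing cells stood at the lowest end. Of 85 measured genes on 3 lists of mitosis, 77 or 90.6% were 2-fold lower in differentiation medium, against 2.41% of all measured genes, 0 were higher and 84 were above the floor. Their median difference was -2.55. The lists of mitosis, too, were chosen with earlier results of these data known. All 25 genes of mitotic entry were 2-fold lower, 25 of 30 kinetochore genes and 27 of 30 genes of the spindle and of cytokinesis. Birc5, survivin, which guides chromosome segregation, read 8.11 in 10% FBS and 4.61 in differentiation medium. Ccna2, cyclin A2, read 10.87 and 7.71. Nuf2 and Ndc80, partners in the complex that holds microtubules, differed by -3.60 and -3.33. The motor Kif11 differed by -3.54 and the contractile-ring protein Anln by -3.42. The member of the mitotic entry list closest to 0 was at -1.29. DNA replication was lower to a smaller extent: 42 of 53 genes were 2-fold lower, 0 higher, with a median of -1.65. The replicative helicase subunit Mcm5 read 9.02 and 6.16, the histone chaperone Asf1b 9.97 and 6.89, and Uhrf1, which maintains methylation at the fork, 8.51 and 5.84. Of 28 DNA repair genes 17 were lower, with Exo1 at -2.32 and Brca1 at -1.98. Of 30 genes of nucleotide synthesis 8 were lower and 0 higher, led by thymidine kinase, Tk1, at -2.45. The list of condensin, cohesin and lamina had 14 of 37 lower and 1 higher, with topoisomerase Top2a at -3.22 and Mki67, the Ki-67 antigen of dividing cells, at -3.01.

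The genes that decide between division and exit were not all lower. In the list of D-type cyclins, pocket proteins, E2F factors and inhibitors, 3 of 37 genes were 2-fold higher and 15 lower, with a median of -0.74. These are 8.11% and 40.5%, against 2.98% and 2.41% of all measured genes. Cdkn1a, the inhibitor p21, read 9.06 in 10% FBS and 12.38 in differentiation medium. Ccnd1, cyclin D1, read 10.08 and 7.86, while Ccnd3, cyclin D3, read 7.96 and 9.02. The cyclins D1 and D3 thus went opposite ways. Rb1, the retinoblastoma protein that holds E2F factors, read 6.33 and 7.09, with probe sets that differed by 0.23 and 1.30, and its relative Rbl1, p107, 8.63 and 6.63. E2f2 was higher by 1.32, while E2f7 and E2f8 were at -1.98 and -1.42. Foxm1, which activates mitotic genes, differed by -2.32, and the ubiquitin ligase subunit Skp2, which removes the inhibitor p27, by -2.16. The phosphatases Cdc25c, Cdc25b and Cdc25a, which release cyclin-dependent kinases, differed by -3.02, -1.91 and -1.32. The inhibitors Cdkn2c and Cdkn2d differed by -0.86 and -0.90.

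Many enzymes and structural proteins exist in a muscle form and a broadly expressed form. Of 33 such pairs, chosen with earlier results of these data known, 30 had both forms measured. The muscle form was 2-fold higher in 15 pairs and 2-fold lower in 0, and the broad form higher in 2 and lower in 3. The medians were 1.04 and -0.33. Among all measured genes 2.98% were higher and 2.41% lower. Actin showed the widest gap: Acta1 differed by 5.27 and the cytoplasmic actin Actb, at 11.15 and 10.67, by -0.48. The glycogen phosphorylase of muscle, Pygm, differed by 3.89 and that of brain, Pygb, by -0.36. The calcium pump Atp2a1 differed by 4.91 and the broad pump Atp2a2 by 0.75. In the respiratory chain the muscle subunits Cox8b and Cox6a2 differed by 2.72 and 2.40, and their counterparts Cox8a and Cox6a1 by 0.37 and -0.06. Adenylosuccinate synthase was the 1 pair with the forms 2-fold apart in opposite directions, Adssl1 at 1.63 and Adss at -1.11. Creatine kinase did not follow this: the brain form Ckb read 8.47 and 10.30, and the muscle form Ckm 5.51 and 6.42. The elongation factor Eef1a2 differed by -0.26. The glucose transporter of muscle and fat, Slc2a4, differed by -0.16 and the mitochondrial creatine kinase Ckmt2 by -0.07. Slc2a4 and Ckmt2 were under the floor on both untreated arrays, so no reliable fold can be read for them. The signed difference was higher for the muscle form than for the broad form in 23 of 30 pairs in the untreated cultures, in 23 in the TNF pair and in 19 in the BTZ pair. These counts include pairs in which the muscle form was level and the broad form lower. The untreated count also takes in the muscle forms Ampd1, Rpl3l and Slc2a4, which were under the floor on both untreated arrays. The Ckm value is the mean of 2 probe sets at 1.53 and 0.29.

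**Figure D3:**
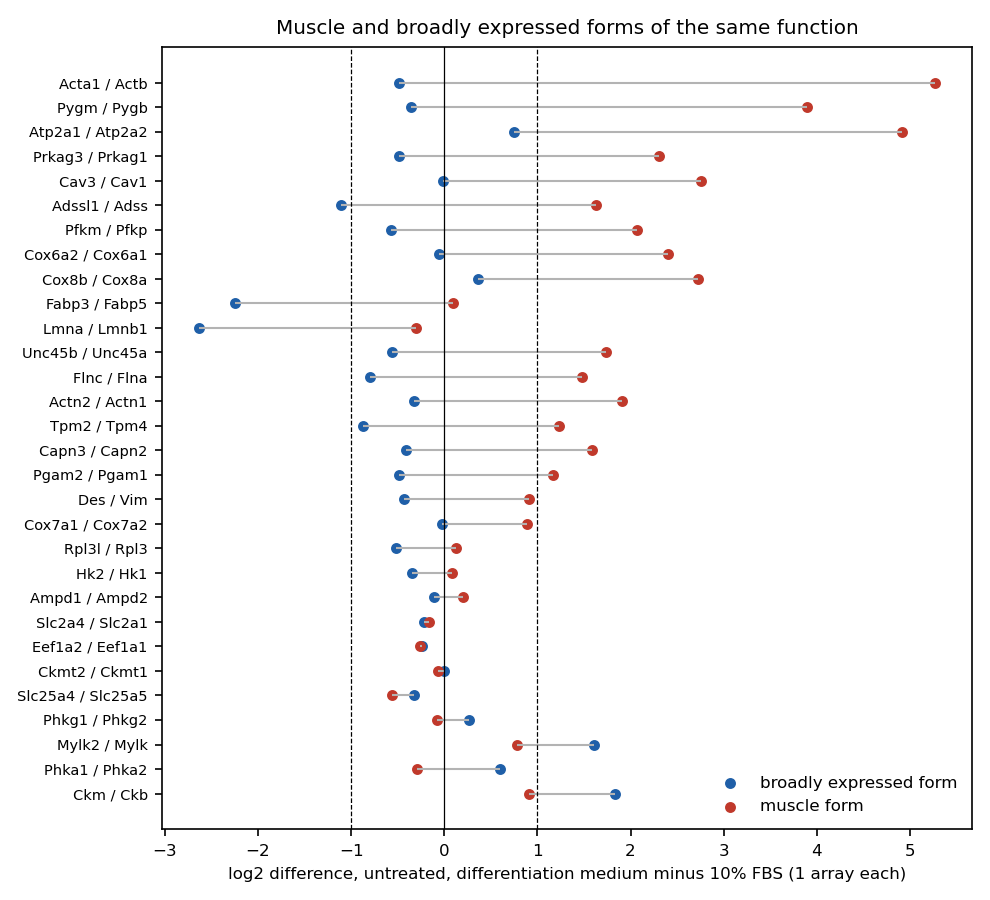
Log2 difference between the 2 untreated arrays for 30 functions with a muscle form (red) and a broadly expressed form (blue), sorted by the gap between them. The red dot is to the right of the blue dot in 23 of 30 rows, and Ckm with Ckb is the row with the widest gap the other way.

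Energy metabolism genes were 2-fold different in a few members. The respiratory chain list had a median of 0.03 over 44 genes, with Cox8b and Cox6a2 the 2 genes that were 2-fold higher and 0 lower. The 2 genes are 4.55% of the list, near the 2.98% of all measured genes that were higher. Lower were 2.41% of all measured genes. Of 31 glycolysis genes 4 were higher and 0 lower: phosphofructokinase Pfkm at 2.08, the pyruvate dehydrogenase regulators Pdk2 at 1.65 and Pdp1 at 1.28, and the mutase Pgam2 at 1.16. Their list median was -0.07. Among glycogen genes 3 of 22 were higher, and Pgm5, a phosphoglucomutase relative found at cell junctions, read 3.86 in 10% FBS and 7.79 in differentiation medium. Mb, myoglobin, the oxygen store of muscle, read 5.82 and 8.73. Of 31 metabolic regulators 2 were higher and 1 lower, or 6.45% and 3.23%, not far from those shares. Prkag3 and Prkaa2, subunits of the AMP-activated kinase found in muscle, differed by 2.31 and 1.64, and Pparg by -1.33. Ppargc1a, the coactivator of mitochondrial genes, stayed under the floor. The NRF2 antioxidant list had 7 of 28 genes lower and 1 higher. Nqo1, a quinone reductase, read 9.52 and 5.97, and Gclm, which makes glutathione, 9.68 and 7.63, whereas the secreted peroxidase Gpx3 was higher by 2.04.

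Of 29 RNA-binding regulators of splicing 2 were 2-fold higher, against 2.98% of all measured genes, and 0 lower, with a median of -0.20. Rbm24, which promotes muscle exons, read 5.19 in 10% FBS and 9.40 in differentiation medium, and Srpk3, a muscle kinase of splicing factors, read 4.92 and 6.31. Ptbp1, a repressor of muscle exons, read 10.20 and 9.23, and Mbnl3, which opposes muscle differentiation, 7.27 and 6.34. The muscleblind proteins Mbnl1 and Mbnl2 differed by -0.22 and -0.20, and the CUG-binding protein Celf2 by 0.71, the mean of probe sets at 1.31 and 0.11. The RBFOX proteins Rbfox1 and Rbfox2 differed by 0.91 and 0.77.

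Muscle microRNAs repress non-muscle programmes, and their precursors were read at the hairpin, not as mature molecules. Of 478 measured precursors 152 were above the floor, 11 were 2-fold higher and 4 lower. Over all 478 these shares were no larger than the 2.98% and 2.41% of all measured genes. Over the 152 they were 7.24% and 2.63%, against 4.83% and 3.92% of all genes above the floor. The floor takes the highest of the 6 arrays, and Mir362 and Mirlet7c-2 reached it only in untreated differentiation medium. The share over the 152 is thus partly set by the floor, and no excess is read from it. Mir133b, whose product is among the classical muscle microRNAs, read 5.07 in 10% FBS and 8.41 in differentiation medium. Its neighbour on chromosome 1, Mir206, was under the floor at 2.42 and 3.21. Mir362 and Mir532, neighbours on the X chromosome, read 3.59 and 5.92, and 4.73 and 6.80. Mirlet7c-2, a let-7 gene, read 3.50 and 5.33, and Mir218-1 4.74 and 6.20. The precursors other than Mir133b and Mir206 were named after their values were seen. The mature sequences are given to show which seeds, bases 2 to 8 in capitals, these precursors carry, from RefSeq, build GRCm38.p6.
miR-133b-3p: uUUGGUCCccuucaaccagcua
miR-133b-5p: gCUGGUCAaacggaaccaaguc
miR-206-3p: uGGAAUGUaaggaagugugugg
miR-362-5p: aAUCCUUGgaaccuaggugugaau
miR-532-3p: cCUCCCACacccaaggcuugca
let-7c-5p: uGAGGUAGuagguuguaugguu
miR-218-5p: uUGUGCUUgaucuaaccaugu
No 2 of these 7 mature sequences share a seed. They lie at chr1:20682834-20682855, chr1:20682797-20682818, chr1:20679055-20679076, chrX:7242019-7242042, chrX:7248419-7248440, chr15:85706616-85706637 and chr5:48223966-48223986, in the order shown.

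Several secreted growth factors and their binding proteins were 2-fold higher. Of 29 genes of insulin-like growth factor and insulin signalling 8 were 2-fold higher and 1 lower. These are 27.6% and 3.45%, against 2.98% and 2.41% of all measured genes. Igf1, which drives muscle growth, read 6.59 in 10% FBS and 9.56 in differentiation medium. Igf2, an autocrine signal of differentiating myoblasts, read 5.63 and 7.29. The binding protein Igfbp5 read 9.25 and 11.98. In the TGF-beta and activin list 6 of 39 genes were higher and 1 lower. Fst, follistatin, which neutralises activin and myostatin, read 7.43 and 10.31, and Inhbb, an activin subunit, read 6.41 and 8.55. In the list of FGF and other receptor kinases 5 were higher and 5 lower of 39, with the growth factor Hgf at 9.28 and 7.27 and Fgf21 at 5.58 and 7.50. Of 33 serum-response and immediate early genes 2 were higher and 3 lower, or 6.06% and 9.09%. Plaur, the urokinase receptor, read 8.44 and 5.15, and the prostaglandin synthase Ptgs2 10.83 and 9.18, while Fos differed by 1.09.

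The matrix and its receptors differed in named members. Of 41 matricellular genes and small proteoglycans 9 were 2-fold higher and 1 lower. These are 22.0% and 2.44%, against 2.98% and 2.41% of all measured genes. Dcn, decorin, a proteoglycan that binds collagen and TGF-beta, read 6.92 in 10% FBS and 11.17 in differentiation medium. Mfap5, a microfibril protein, read 7.88 and 10.76, and Cilp, a matrix protein known from cartilage, read 4.45 and 8.25. Of 36 integrins, cadherins and partners 11 were higher and 1 lower, among them Itgb1bp2, a muscle partner of integrin beta 1 called melusin, at 6.04 and 9.04, and Itgb5, which differed by 1.76. Fibrillar collagens were nearly level, with Col3a1 the 1 gene of 16, or 6.25%, that was 2-fold higher, at 1.16. Of 41 matrix proteases and their partners 8 were higher and 1 lower, with Adamts4, which cuts proteoglycans, at 2.47 and Pcolce2, an enhancer of collagen maturation, at -2.21. Of 36 chemokine and complement genes 8 were higher and 3 lower: the adipokine relative C1qtnf3 read 7.98 and 12.46, and the complement inhibitor Serping1 5.18 and 7.58. The interferon list had 0 of 31 genes past 2-fold either way, which is near the shares of all measured genes.

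Protein turnover genes of muscle were higher in 13 of 47 cases, or 27.7%, against 2.98% of all measured genes, and lower in 0. They included Trim72, which seals membrane wounds, at 4.82 in 10% FBS and 8.71 in differentiation medium, and Trim55, a ligase of the M band, at 5.94 and 8.77. Among 42 genes of the nonmuscle cytoskeleton 2 were higher and 7 lower, with the smooth muscle calponin Cnn1 at 6.41 and 4.41 and the microtubule-releasing protein Stmn1 at 7.09 and 5.17. Nes, nestin, a filament of young muscle, read 9.71 and 10.97. Among reference genes, 0 of 14 housekeeping genes were past 2-fold. Their median was -0.23, in a range of -0.81 for Hprt to 0.47 for Tfrc. That count is near the 2.98% higher and 2.41% lower of all measured genes, so it does not set these genes apart. Of 44 ribosomal protein genes 2 were lower and 0 higher, also near those shares, with a median of -0.35.

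The TNF and BTZ pairs repeat the change of medium with arrays that the untreated pair does not share. Of the 660 higher genes, 448 or 67.9% were also 2-fold higher in the TNF pair, where 5.85% of all genes above the floor were, and 648 had the same sign. In the BTZ pair 117 or 17.7% were, against 1.54% of all genes, and 506 had the same sign. Of the 535 lower genes, 391 or 73.1% were 2-fold lower in the TNF pair, where 4.85% of all genes were, and 181 or 33.8% in the BTZ pair, where 2.13% were. The larger differences recurred more often. Of 63 genes at least 3 units higher, 62 were past 2-fold in the TNF pair and 35 in the BTZ pair. Of 36 genes at least 3 units lower, 36 and 33 were. Of 507 genes higher by 1 to 2 units, 299 and 59 were. No test of the difference between pairs can be had with 1 array per group.

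The levels of the mitotic and contractile genes differed between the pairs. The median level over the 85 mitosis genes was 8.47 in untreated 10% FBS and 6.06 in untreated differentiation medium. It was 8.85 and 6.63 with TNF-α and 6.71 and 5.14 with BTZ. With BTZ it was thus lower in both media. The median level over the 94 contractile genes was 5.52 and 8.03 untreated, 5.32 and 7.61 with TNF-α, and 5.58 and 6.39 with BTZ. With BTZ the contractile median was close to the untreated one in 10% FBS and lower in differentiation medium. Ttn kept most of its difference, at 6.21 untreated, 6.03 in the TNF pair and 5.56 in the BTZ pair. Chrng did not, at 5.73, 6.20 and 0.14, nor did Atp2a1, at 4.91, 3.95 and -0.06. Cilp was at 3.80, 1.04 and 0.52, the imprinted hydrolase gene Mest at 2.13, 0.36 and 0.10, and F3, tissue factor, at -2.53, -0.25 and -1.11. These 3, picked for this after their values were seen, differed most in the untreated pair.

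**Figure D4:**
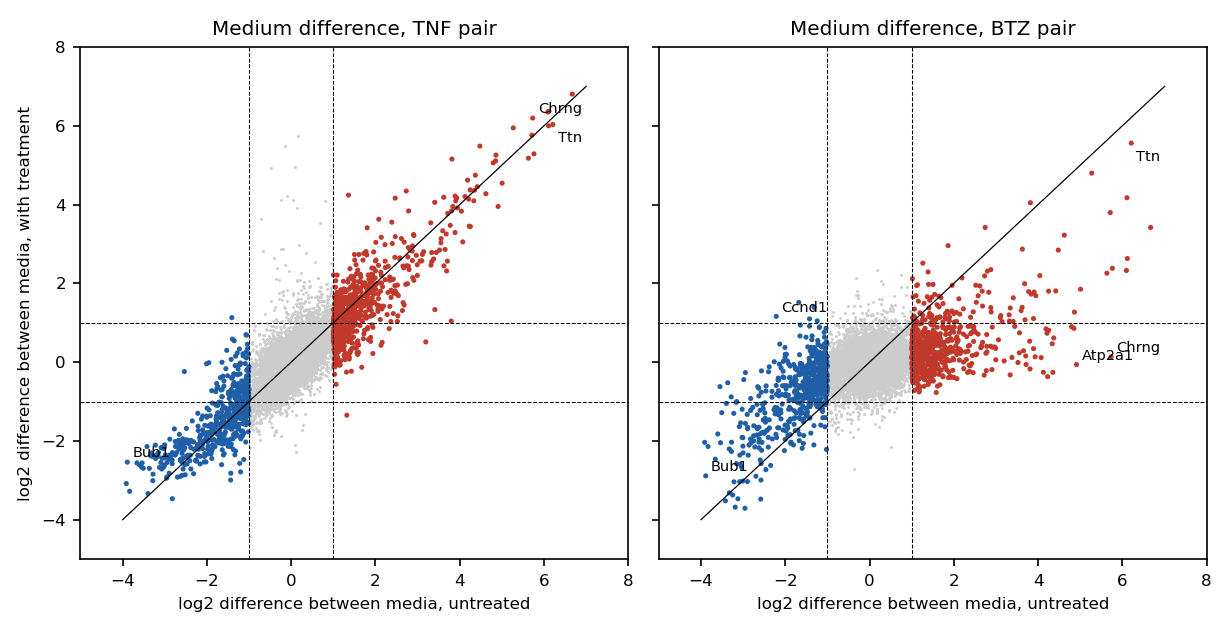
Log2 difference between media in the untreated cultures (horizontal) and in the TNF pair or the BTZ pair (vertical), 1 array per culture, for genes above the floor; red and blue are genes 2-fold higher or lower untreated, grey the others, dashed lines a 2-fold difference and the solid line equality. Of the 660 red genes 448 are above the upper dashed line with TNF-α and 117 with BTZ.

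**Figure D5:**
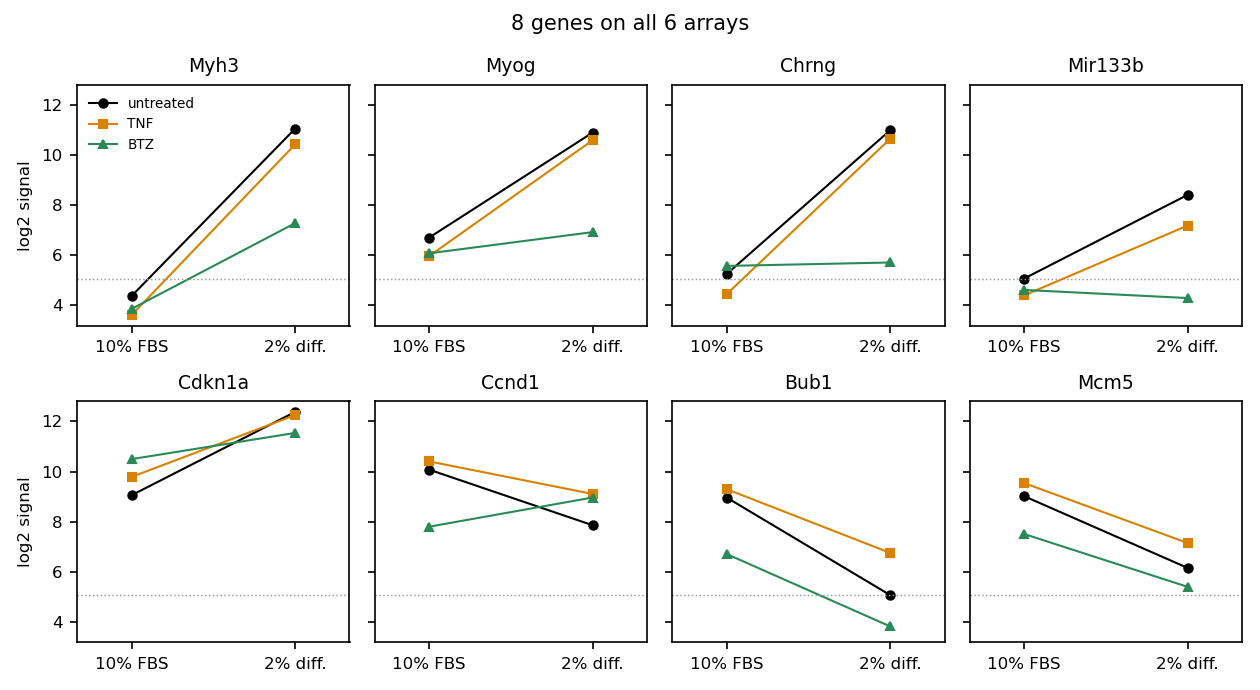
Log2 signal of 8 genes on each of the 6 arrays, with lines joining the 2 media of a treatment and a dotted line at the floor of 5.06. Untreated and TNF-α lines slope the same way, while with BTZ Chrng and Mir133b stay level and Ccnd1 turns.

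A mean effect of the medium over the 3 pairs was fitted with limma, with treatment as a covariate, which leaves 2 residual degrees of freedom. It is a different quantity from the untreated difference, since any difference of the medium effect between treatments adds to its error. At an adjusted p under 0.05, 213 genes (1.56% of the 13652 tested) were higher and 337 (2.47%) lower. All 550 had the sign of the untreated difference, which is part of the fit, and 171 of the higher and 254 of the lower were also past 2-fold untreated. Titin rose by 5.93 with a standard error of 0.174 (limma adjusted p = 0.000952), in 3 of 3 pairs. Skeletal actin, Acta1, rose by 5.34 with a standard error of 0.231 (limma adjusted p = 0.00448). Bub1 fell by 3.10 with a standard error of 0.272 (limma adjusted p = 0.00619). Myh3 rose by 5.63 with a standard error of 0.665 (limma adjusted p = 0.0149), Mymk by 4.92 with 0.777 (limma adjusted p = 0.0327). Ttn, Bub1, Myh3 and Mymk are the 4 markers given with the comparison. Since the untreated pair is part of the fit, their adjusted p-values are no separate support for them. Of the lists, 39 of 53 replication genes passed lower and 0 higher, as did 24 of 30 spindle genes and 21 of 25 genes of mitotic entry. Of the Z disc genes 10 of 23 passed higher and 0 lower, and of the triad genes 9 of 30 and 0. Some of the widest untreated differences did not pass: Chrng had an effect of 4.02 with a standard error of 1.15 (limma adjusted p = 0.119), and Myog one of 3.22 with 0.714 (limma adjusted p = 0.0714). Without the untreated pair 1 gene passed, without the TNF pair 118 and without the BTZ pair 3207. For Ccnd1 the effect was -0.78 with a standard error of 0.607 (limma adjusted p = 0.502).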

How the data were processed

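Total RNA of 6 C2C12 cultures, extracted with TRIzol and labelled with biotin by a whole-transcript kit per the labels' protocols, was hybridised to 1 Affymetrix array each. The deposited table gives 1 value per probe set and array. The authors' deposited values were read as log2 signals, judging by their range of about 2 to 14. How the scanner output was summarised and normalised is not given in the sources used here. Detection calls were not used, and no scaling was added.

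Of 41345 probe sets, 23521 named 1 gene in the platform annotation, 1814 named several and 16010 none. A gene was the mean of its single-gene probe sets. As floor served the median over all values, applied to the highest of the 6 arrays. The untreated difference is the differentiation array minus the 10% FBS array, counted at 1 log2 unit, with no test. The mean medium effect was fitted in R 4.3.3 by limma 3.58.1, with a trend in eBayes and Benjamini-Hochberg adjustment over 13652 genes, after a run on simulated data. Python 3.11.15, pandas 2.3.3 and matplotlib 3.10.9 did the rest.

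The members, the 63 gene lists and 33 pairs of forms were chosen with earlier results of these data known. Named genes were the 4 markers, the 15 highest and 15 lowest differences without predicted genes, small RNAs and receptor families, up to 5 members of each list with the largest difference, all pairs of forms, and all members of the lists of G1 regulators, myogenic factors, myosin heavy chains, synapse, muscle microRNAs, fusion, splicing and metabolic regulators. Genes named outside this rule are said to be so. Promoters and mature microRNAs are from RefSeq tables matched by symbol. Alternatives were other scalings, floors, probe set summaries and pairs, and fits without a pair or without the trend.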

Additional observations from a re-analysis of the deposited data

Results flagged for a closer look

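Of the 1195 genes past 2-fold between the untreated arrays, 7 were past 2-fold the other way in another pair of media. They are named here after their values were seen, and with 1 array per culture the difference was not tested. Cyclin D1, Ccnd1, read 10.08 in 10% FBS and 7.86 in differentiation medium untreated, and 7.80 and 8.96 with BTZ, so its difference went from -2.22 to 1.16. Its partner kinase Cdk6 went from -1.24 to 1.05. The chemokine Ccl2 went from -1.42 to 1.10 and Csf1, the growth factor of macrophages, from -1.32 to 1.39. Cth, an enzyme that makes cysteine, went from -1.68 to 1.51. Thus 5 of the 7 turned in the BTZ pair. In the TNF pair Ccbe1, a matrix protein of lymphatic growth, went from 1.32 to -1.35, and the predicted gene Gm10272 from -1.41 to 1.13.

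Values of probe sets without a named gene entered no comparison. Of 16010 such probe sets 8413 were above the floor, 322 of them 2-fold higher and 578 2-fold lower in untreated differentiation medium. The 14490 single-gene probe sets above the floor had 726 higher and 582 lower.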

How the results depend on the processing

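Shifting each array to the same median, quantile normalization, another floor, no floor and taking the probe set with the highest mean left the number of genes 2-fold higher between 598 and 694 and the number 2-fold lower between 519 and 554, against 660 and 535. Under the shift and under quantile normalization 659 and 657 of the 660, and 534 and 528 of the 535, were called again. The TNF pair gave 799 and 662 and the BTZ pair 210 and 291. Of 205 named differences, 1 crossed the 2-fold line under the shift, 3 under quantile normalization and 4 with the probe set of the highest mean, and 0 turned sign. The limma count of 550 was 510 without the trend and 517 after quantile normalization. It was 3207 without the BTZ pair, 118 without the TNF pair and 1 without the untreated pair, with 550, 116 and 1 genes shared with the 550, each with 1 residual degree of freedom. The cause was not tested. Of the 660 higher and 535 lower genes, 648 and 518 kept the sign in the TNF pair and 506 and 464 in the BTZ pair. Turns of sign are listed here for the 205 named genes only. Sign turned from a called untreated difference in the TNF pair for Ccbe1 -1.35, Ccl2 0.070, Csf1 0.15 and Gm10272 1.13. It turned in the BTZ pair for Ano5 -0.035, Atp2a1 -0.061, Ccbe1 -0.11, Ccl2 1.10, Ccnd1 1.16, Ccnd3 -0.0033, Cdk6 1.05, Cox8b -0.33, Csf1 1.39, Cth 1.51, E2f2 -0.38, Erbb3 -0.37, Gclm 0.019, Gm10272 0.29, Hgf 0.37, Klhl24 -0.31, Mb -0.19, Mir133b -0.32, Mir362 -0.26, Mymx -0.37, Myod1 -0.61, Myom1 -0.26, Nefl 0.096, Pcdhb19 -0.27, Pfkm -0.42, Rapsn -0.15, Sox10 0.34, Srpk3 -0.57 and Tubb3 0.26. The groups share only replicate number 1, so no replicate block was added to the limma fit, which already compares the media within each treatment. The number of arrays limits every value: 1 array per culture gives no error for the untreated difference, and signals under the floor have no reliable fold. Of 814 genes above the floor with several probe sets, 68 had probe sets whose untreated differences lay apart by 1 unit or more.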

Other observations

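A run of neighbouring cell adhesion genes was higher in untreated differentiation medium. Of 22 measured protocadherin beta genes, which sit side by side on chromosome 18, 11 were above the floor and 10 were 2-fold higher, with 0 lower. Of all measured genes 2.98% were 2-fold higher. The differences of the 10 genes were between 1.44 and 2.46. Of the 10, Pcdhb16, Pcdhb17 and Pcdhb20 were above the floor in untreated 10% FBS, and the others were under it. Pcdhb19 read 4.44 in 10% FBS and 6.90 in differentiation medium, Pcdhb20 6.32 and 8.66, and Pcdhb17 6.36 and 8.59. In the TNF pair 9 of the 22 were 2-fold higher and in the BTZ pair 0, with medians over the 10 genes of 1.92 untreated, 1.87 with TNF-α and 0.46 with BTZ. Of 12 other protocadherins 6 were above the floor and 0 were past 2-fold. The genes were singled out after their values were seen, and they are near-identical neighbours whose probes may share targets, which was not tested.

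Histone genes were lower, as replication genes were. Of 30 measured histone genes 18 were above the floor. Of the 30, 13 were 2-fold lower, against 2.41% of all measured genes, and 0 were higher. The linker histone H1f5 read 9.81 and 5.98, H2ac10 12.41 and 9.19, and H2bc12 8.09 and 4.69. In the TNF pair 13 were 2-fold lower and in the BTZ pair 7. These genes were also chosen after their values were seen, and members of each class are near-identical.

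Of 37 measured Klhl genes 6 were 2-fold higher, against 2.98% of all measured genes, and 0 lower, adding Klhl30 at 1.96, Klhl33 at 1.71 and Klhl24 at 1.65 to those given above. The inflammatory caspases Casp4 and Casp12 were at 2.12 and 2.00, and Casp1 was just short of 2-fold at 0.99. Of 9 measured genes with a caspase name, 8 were above the floor. Of the 9, 2 were 2-fold higher, against 2.98% of all measured genes, and 0 lower. The 9 include Casp8ap2, which is not itself a caspase. These Klhl and caspase genes were singled out after their values were seen. Long noncoding RNA genes were seldom past 2-fold: of 601 above the floor 9 were higher and 5 lower, against 629 and 507 of 12577 protein-coding genes.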
